A study of Arabidopsis thaliana with 4 samples.

Results

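GRP7 (AT2G21660), GRP8 (AT4G39260, listed as CCR1 in RefSeq), PTB1 (AT3G01150), PTB2 (AT5G53180) and PTB3 (AT1G43190) encode RNA-binding proteins, and most of them are known to act on the splicing of their own pre-mRNA. Every entry of the 4 deposited tables whose identifier begins with one of these 5 loci was taken. An entry covers 1 intron and 50 exonic nt before and after it, or the 100 nt window of 1 poly(A) site. The 5 genes had 24 of 24782 intron entries in vivo and 63 of 34255 after deproteinization, and 23 of them were in both tables. They had 5 of 6605 poly(A) windows in vivo and 2 of 1068 after deproteinization.

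The study probed nuclear RNA of Arabidopsis thaliana seedlings with NAI, a chemical that modifies flexible, mostly unpaired nucleotides of RNA, so that a high SHAPE reactivity marks an accessible nucleotide. Wild-type Col-0 seedlings, 5 days old, were used throughout. For the in vivo condition whole seedlings were treated with 100 mM NAI before nuclei were isolated, beside seedlings given DMSO. For the deproteinized condition nuclei were lysed, protein was removed and the RNA was then treated with 100 mM NAI, beside RNA without NAI. Each table held 1 merged profile per condition, so no value has a replicate error and no difference between profiles was tested. The number of reads behind each entry is unknown. Intron scores ran from 0 to 1 and poly(A) scores from 0 to 2.

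GRP7 and GRP8 are small glycine-rich proteins under the control of the circadian clock. When the protein is abundant it binds its own transcript and favours a cryptic 5′ splice site (5′ss) inside the intron, and the resulting RNA carries a premature stop codon and is degraded. Each of the pair also acts on the other in this way. PTB proteins bind pyrimidine-rich stretches such as UCUU. PTB1 and PTB2 regulate themselves and each other through an alternative exon whose inclusion targets the RNA for decay, while PTB3 is a more distant relative.

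The sites on which GRP7 and GRP8 autoregulation is known to turn are shown first. The coordinates and sequences are those of RefSeq on TAIR10.1, 5′ to 3′ on the gene's strand (the minus strand for both), and capitals mark positions −3 to +6 around the splice junction, where −1 is the last exon nucleotide.
GRP7 exon 1 site, chr2:9266193-9266222: gcgacguuauugauuccAAGGUCUGUuaca
GRP8 exon 1 site, chr4:18274841-18274870: gcgacguuaucgauucuAAGGUCUGUuaca
GRP7 intronic site, chr2:9266027-9266056: acuuguauuuucccaaaUCGGUACGUucau
GRP8 intronic site, chr4:18274683-18274712: uuacuuaauuugucccaUCGGUACGUucau
The 9 capital letters were the same in both genes at the exon 1 site, and again at the intronic site. Against AAGGUAAGU, the most frequent letter at each position over GU-AG introns, the exon 1 site matched at 7 of 9 positions and the intronic site at 6. Over the 30 nt shown, 28 were identical between GRP7 and GRP8 at the exon 1 site and 20 at the intronic site.

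The GRP7 intron lay on chromosome 2 at 9265894 to 9266202 (309 nt), and its shorter form, from the intronic site, ran from 9265894 to 9266036 (143 nt). The GRP8 intron lay on chromosome 4 at 18274568 to 18274850 (283 nt), with a shorter form at 18274568 to 18274692 (125 nt). All 4 lay between the start and the stop codon, and all 4 were in both tables. The 2 sites were 166 nt apart in GRP7 and 158 nt apart in GRP8. Both sites were read from the longer entry, because overlapping entries can differ in scale. On shared nucleotides the scores of overlapping entries of a member gene correlated at 0.961 to 1. The median ratio of the shorter to the longer entry was between 0.721, for GRP7 in vivo, and 1.13. Entries inside exon 2 of GRP7 and GRP8, described below, are not part of these ranges.

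In GRP7 in vivo, the reactivity at −1 was 0.280 at the exon 1 site and 0.714 at the intronic site, and at −2 it was 0.311 and 0.461. After deproteinization the −1 values were 0.337 and 0.136. The intronic site was therefore the more reactive in vivo by 0.434 and the less reactive after deproteinization by 0.201. Read from its own entry, the intronic site scored 0.464 in vivo and 0.124 after deproteinization, so the in vivo excess over the exon 1 site was 0.184 with each site taken from its own entry.

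GRP8 differed from GRP7 at the same letters. In vivo −1 was 0.728 at the exon 1 site and 0.358 at the intronic site, and after deproteinization 0.486 and 0.178. The exon 1 site was thus the more reactive in both conditions, by 0.369 and 0.307. At −2 in vivo the order was the other way, 0.223 at the exon 1 site against 0.594 at the intronic site, and the mean of −2 and −1 differed by only 0.00118. These differences at −1 have no error, since each rests on 1 nucleotide of 1 profile.

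The 20 nt on either side set these values in context. The mean of positions −20 to −3 and +1 to +20, here the flanks, was 0.269 in vivo and 0.279 after deproteinization at the GRP7 exon 1 site, and 0.286 and 0.272 at its intronic site. In GRP8 it was 0.348 and 0.218 at the exon 1 site and 0.381 and 0.242 at the intronic site. The −1 nucleotide of GRP7 thus stood clearly above its flanks at the intronic site in vivo, and that of GRP8 at the exon 1 site in both conditions. Around the GRP8 exon 1 site, −4 scored higher than −1, at 0.899 in vivo and 0.851 after deproteinization, the highest of the 40 positions.

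Another nucleotide was the most reactive around the intronic site of both genes. At −14 the score was 0.763 in vivo and 1 after deproteinization in GRP7, the highest of the 40 positions in each case. In GRP8 it was 1 in both conditions, a value reached in vivo also at +20. Its neighbour at −15 scored 0.524 and 0.813 in GRP7, and 0.821 and 0.842 in GRP8. The letters at −15 and −14 were the same in both genes. Over 100 nt around the intronic site, with 67% identical letters, the scores of GRP7 and GRP8 correlated at 0.223 in vivo and 0.503 after deproteinization. Around the exon 1 site, with 57% identical letters over 100 nt, the values were 0.20 and 0.262.

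**Figure D1:**
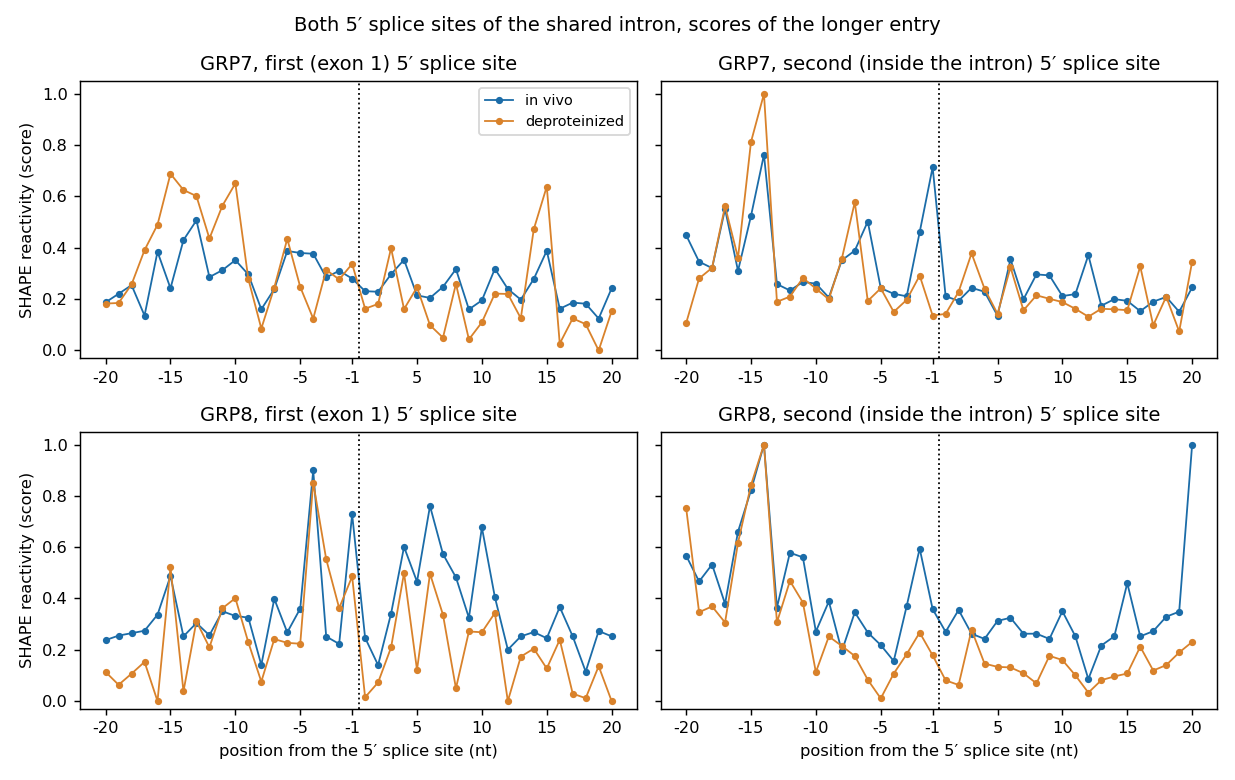
SHAPE reactivity (score, 0 to 1) at positions −20 to +20 of the exon 1 site (first) and the intronic site (second) of GRP7 and GRP8, in vivo (blue) and deproteinized (orange), read from the longer entry, with the splice junction dotted. At the intronic site −14 reaches 0.763 and 1 in GRP7 and 1 in both conditions in GRP8, while the −1 peak of 0.714 in GRP7 is seen in vivo only.

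A branch site is the adenosine that attacks the 5′ss in the first step of splicing. The motif searched was CU followed by A or G, then the branch A, then C or U, on the strand of the intron, with that A 15 to 50 nt from the intron's end, and the match is a description and not a mapped branch site. The motif of GRP7 and GRP8 is shown because its A was at the highest possible score in both genes in vivo, and capitals mark the motif.
GRP7 branch motif, chr2:9265907-9265936: ggauuguuuugCUGAUcugguuuuuguauu
GRP8 branch motif, chr4:18274578-18274607: gauuguuuuugCUGAUguguaugauuuugu
The A lay 28 nt before the last intron nucleotide in GRP7, at 9265922, and 25 nt before it in GRP8, at 18274593. In GRP7 it scored 1 in vivo and 0.0146 after deproteinization, with flanks of 0.460 and 0.360. In GRP8 it scored 1 in vivo and 0.767 after deproteinization, with flanks of 0.511 and 0.333. The shorter entries gave the same picture, with 1 and 0.0182 in GRP7 and 1 and 0.676 in GRP8. The branch A of GRP7 was therefore among the most reactive nucleotides of its intron in vivo and among the least reactive without protein, while that of GRP8 was above its flanks in both.

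A swing of this kind was not rare. Over all introns with a motif in both tables, the A stood at least 0.2 above its flanks in 1 condition and at least 0.2 below in the other in 14.2%, or 510 of 3595. Near the 3′ss of GRP7, positions −11 to −6 were at the ceiling of 1 in both conditions, where no change can be seen, and other positions differed, with 0.944 in vivo and 0.236 after deproteinization at −21.

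**Figure D2:**
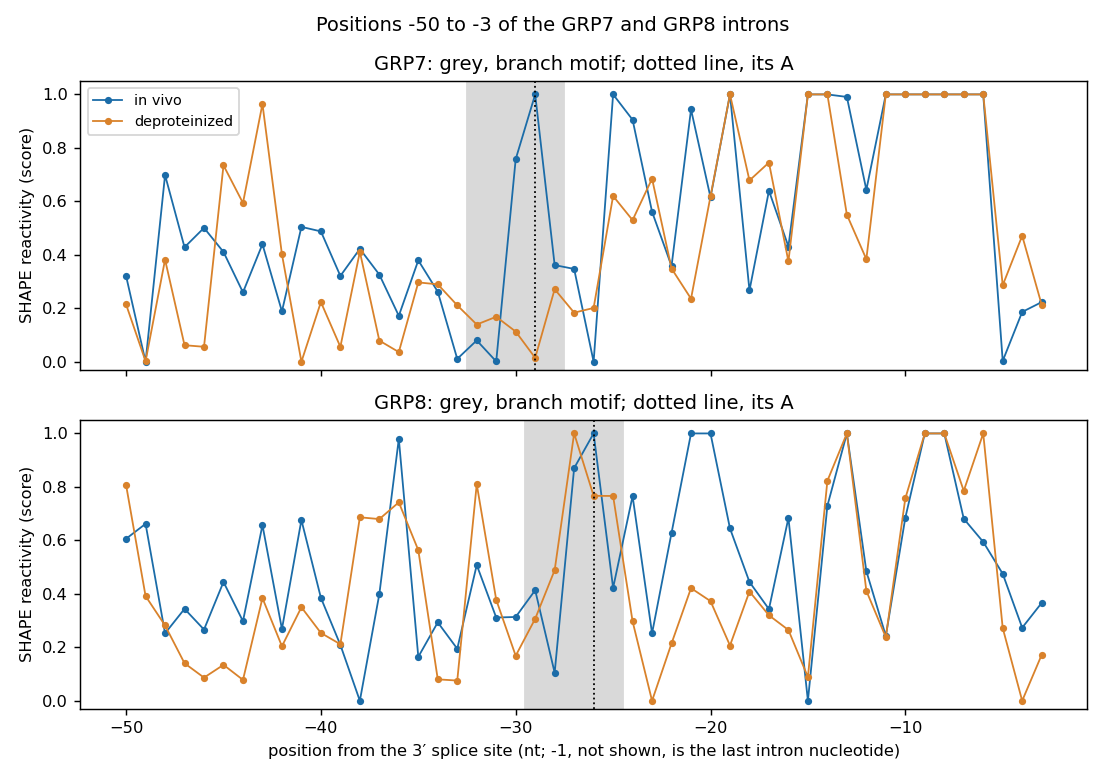
SHAPE reactivity (score, 0 to 1) at positions −50 to −3 from the 3′ss of GRP7 and GRP8, in vivo (blue) and deproteinized (orange), with the branch motif in grey and its A dotted. The A of GRP7 is at 1 in vivo and 0.0146 after deproteinization, and that of GRP8 at 1 and 0.767.

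The motif was found in 13 of the 24 member introns in vivo and in 15 of 63 after deproteinization, against 24.0% and 24.5% of all introns, and no intron inside exon 2 of GRP7 or GRP8 held it. Its A was above its flanks in 11 of 13 and 11 of 15, against 59.4% and 60.7% of all introns with the motif, and several of these entries share the same A. With a wider motif, in which the letter before U may also be U and the letter after it any base, the counts were 12 of 23 and 11 of 26, against 53.4% and 54.9% of all introns with it, so the share depended on the motif chosen. Among the PTB genes the A scored 0.810 in vivo and 0.384 after deproteinization in the 217 nt intron of PTB1. It scored 0.747 and 1 in the 387 nt intron of PTB2, and 1 in both conditions in the 605 and 815 nt introns of PTB2, which share it. In PTB3 the A of the 190 nt intron scored 0.682 and 0.833. The exceptions, with the A below its flanks in vivo, were the 77 nt and 503 nt introns of PTB3, at 0.330 and 0.299, and in both the score was the value that recurs most within the entry. Over the 13 introns with the motif in both conditions, the A was at least 0.2 lower after deproteinization in 5 (background 24.5%), which were the 4 GRP7 and GRP8 entries and 1 of PTB1, and at least 0.2 higher in 3 (background 25.2%).

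Most GRP7 and GRP8 entries lay elsewhere. After deproteinization GRP7 had 22 and GRP8 14 further introns, all 36 of them inside the coding part of exon 2 and none in the in vivo table. Exon 2 encodes most of the glycine-rich tail, from repeated codons for glycine. Introns inside annotated exons made up 5.70% of all deproteinized entries and 4.63% of all in vivo entries. Because nucleotides of these introns are exon sequence in the annotated mRNA, reads from unspliced and from spliced RNA cannot be told apart there. Nor can the lack of such an entry in vivo be told apart from fewer reads, and in bulk seedlings fewer cells of a type cannot be told apart from less RNA per cell.

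The 36 introns combined 24 distinct 5′ss with 17 distinct 3′ss. They were 51 to 274 nt long, with a median of 184.5 nt, and 31 of 36 had a length divisible by 3, against 33.9% of all deproteinized introns and 43.8% of those inside exons. Only 16 began with GU and ended with AG, 19 began with GC and ended with AG, and 1 had other ends, whereas 97.1% of all deproteinized introns were GU-AG. All 24 in vivo entries were GU-AG, against 97.0% of all in vivo introns. RefSeq models held 4 of the 36, 1 in GRP7 and 3 in GRP8.

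Their ends lay in repeats. The sites that the largest number of these introns share in each gene are shown because they show the repeated glycine codons in which the ends lie. Capitals mark −3 to +6 of the 5′ss and the final AG of the 3′ss.
GRP7 exon 2 5′ss, chr2:9265706-9265735: cggcggaggccaccgugGAGGUGGUGgcgg
GRP7 exon 2 3′ss, chr2:9265475-9265504: aggaagcgguggugguggAGgaugguaauu
GRP8 exon 2 5′ss, chr4:18274389-18274418: uagcggcgguggcggagGAGGCCGUGgugg
GRP8 exon 2 3′ss, chr4:18274176-18274205: ugaugguggaaguuacggAGgcgguggugg
The GRP7 5′ss was shared by 5 introns and its 3′ss by 6, and the GRP8 sites by 3 and 6. A direct repeat of at least 4 nt across the 2 ends of the intron was present in 27 of 36, with a median of 5 nt and a longest repeat of 15 nt. Such a repeat was present in 19.6% of all deproteinized introns and in 24.5% of those inside exons. With a direct repeat, the position of the junction cannot be fixed from a read alone.

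Of the 24 distinct 5′ss in exon 2, 18 had a score at −1, and the other 6, all in GRP8, had none, with up to 67 unscored nucleotides in an entry. The −1 nucleotide was above its flanks at 11 of the 18, against 49.4% of all introns inside exons. At the GRP7 site printed above it was 0.756 with flanks of 0.485. Counted by entry, 18 of 27 scored at least 0.6 at −1, against 29.8% of all introns inside exons. Entries that share a 5′ss share this nucleotide, so the count by site, also 11 of 18, carries fewer repeats. In the exon 2 entries 14.8% to 24.4% of scored nucleotides were at 1. The range was 5.01% to 7.07% in the other deproteinized member entries, so high scores in exon 2 were not confined to −1. In GRP7, exon 2 entries that share a 5′ss had the same −1 score and the same flanks there, whereas overlapping entries outside exon 2 could differ in scale. Exon 2 scores may therefore be scaled unlike those of other entries, which was not tested. These shares and the counts of at least 0.6 may thus not be directly comparable between them. Positions −7 to −4 before the 3′ss were below −20 to −8 in 34 of 36, from 17 distinct sites, against 62.5% of all introns inside exons.

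**Figure D3:**
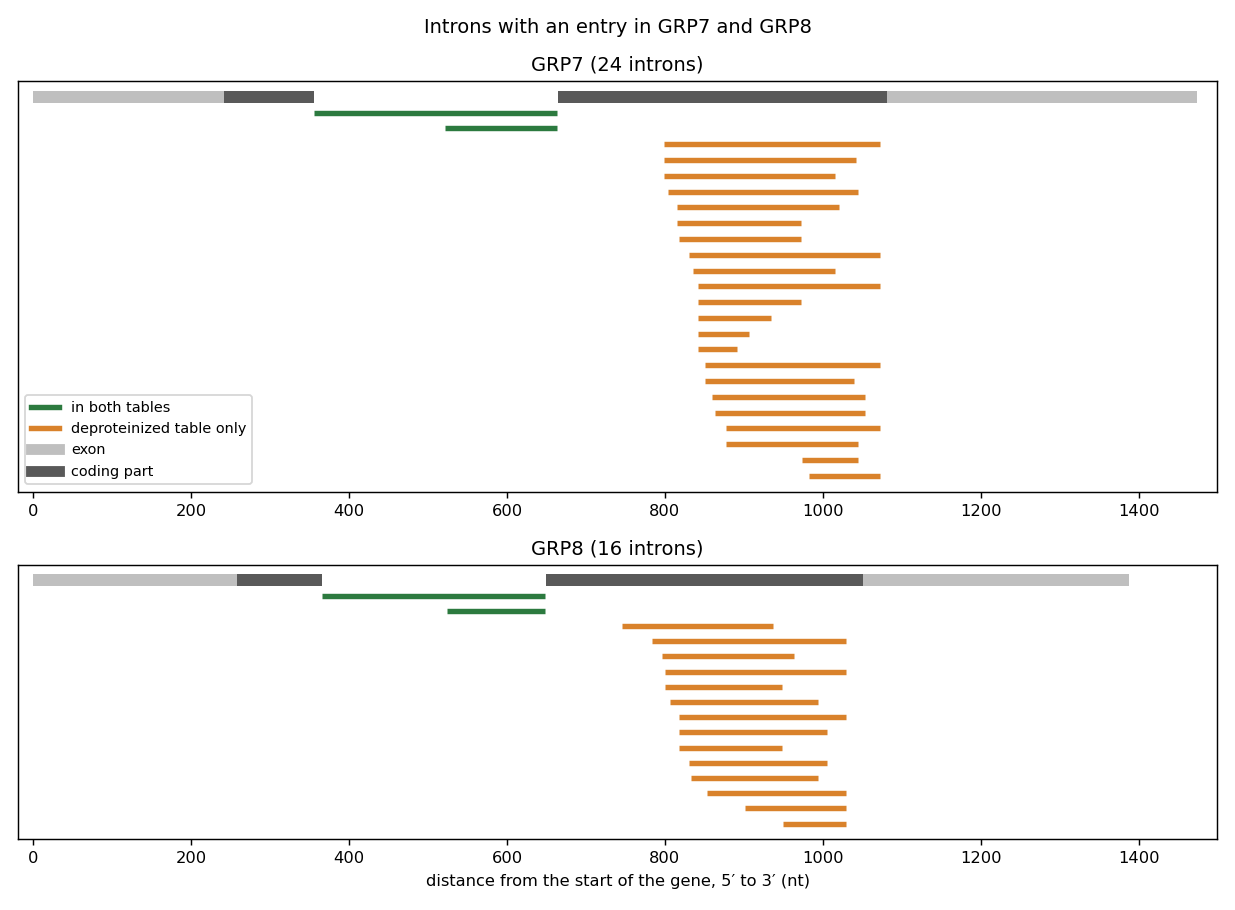
Introns of GRP7 and GRP8 drawn to scale by distance from the start of the gene (nt), with exons in grey, coding parts dark, introns in both tables green and introns of the deproteinized table orange. The 22 and 14 introns inside exon 2 stack over its coding part, while the 2 entries of the annotated intron share their right end.

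PTB2 had the richest record of alternative splicing among the PTB genes, with 11 entries in vivo and 10 after deproteinization on chromosome 5. Its 815 nt intron (21570229 to 21571043) contains an alternative exon of 58 or 61 nt (21570834 to 21570891, or to 21570894), neither length divisible by 3. The 5′ss (donor) upstream of this exon and the donor at its end are shown because they begin the 815 and 605 nt introns, which share a 3′ss. The upstream donor is used both in skipping and in inclusion of the exon, and the exon's own donor only in inclusion. Both are on the minus strand, with −3 to +6 in capitals.
PTB2 upstream donor, chr5:21571034-21571063: gcauugaugucuugcauCUGGUAAGUggau
PTB2 alternative exon donor, chr5:21570824-21570853: cauuaggagaaagagcaCAUGUGUGUuugu
At −1 the upstream donor scored 0.408 in vivo and 0 after deproteinization, and the donor of the alternative exon scored 1 in both. At −2 the upstream donor scored 0.198 and 0.613, and the exon's donor 0.283 and 0.758. The exon's donor was the more reactive at both positions in both conditions. The 3′ss at the start of the alternative exon were 3 nt apart, and positions −7 to −4 before them averaged 0.321 and 0.388 in vivo and 0.480 and 0.344 after deproteinization.

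Other alternative sites of PTB2 were close together. In its 387 nt intron (21569612 to 21569998) a 5′ss 28 nt further in starts a 359 nt intron.
PTB2 outer site, chr5:21569989-21570018: gauggaagaagcaucccUAGGUGACAguug
PTB2 inner site, chr5:21569961-21569990: uguauuaaauuuuugacAUGGUAUUUaguc
At −1 these scored 0 and 0.00782 in vivo and 0.250 and 0.196 after deproteinization, so both were low and close to each other. The 98 nt and 102 nt introns share a 5′ss and end 4 nt apart. Their −1 nucleotide scored 0 in vivo and 0.276 after deproteinization. The intron of the 5′ UTR (21571559 to 21571786, 228 nt) had the widest change of PTB2, from 0 in vivo to 1 after deproteinization, against flanks of 0.320 and 0.384. Such a change, from at least 0.2 on one side of the flanks to at least 0.2 on the other, was found in 8.33% of all introns, or 1238 of 14855. In that entry a single recurring score filled 61.9% of nucleotides in vivo and 42.4% after deproteinization, so its profile has few distinct values.

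The other PTB2 introns gave a −1 score of 0.611 in vivo and 0.416 after deproteinization in the 93 nt intron, both above flanks of 0.250 and 0.242. The 89 nt intron, in the in vivo table only, scored 0.0744 with flanks of 0.387. Over the gene, −1 was above its flanks in 5 of 11 entries in vivo (background 60.8%) and 3 of 10 after deproteinization (background 67.5%), from 8 and 7 distinct 5′ss.

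PTB1, the closest relative of PTB2, had 3 entries in vivo and 6 after deproteinization on chromosome 3. Its last intron has a pair of 5′ss 47 nt apart, shown because their −1 scores were at opposite ends of the range after deproteinization (plus strand, −3 to +6 in capitals).
PTB1 outer site, chr3:53892-53921: cauuuaugacgguggcuACUGUAAGCuucg
PTB1 inner site, chr3:53939-53968: auacugaucugaauguuAAGGUACAUaaga
After deproteinization the outer site, of the 217 nt intron (53912 to 54128), scored 1 at −2 and 0 at −1, and the inner site, of the 170 nt intron (53959 to 54128), scored 0 at −2 and 1 at −1. The mean of −2 and −1 was thus the same at both. In vivo the outer site scored 0.376 and 0.228, and the inner site had no score, the entry lacking 112 nucleotides. The 702 nt intron (52341 to 53042), absent from RefSeq models, skips the exon that ends at the 5′ss of the 91 nt intron (52952 to 53042). By rank the 91 nt intron matched the 93 nt intron of PTB2, so this skipped exon was not matched to the PTB2 alternative exon. At −1 after deproteinization the 702 nt intron scored 0.313 and the 91 nt intron 0.251, both below flanks of 0.514 and 0.311. Neither was in the in vivo table.

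The remaining PTB1 introns had the highest score at −1. It was 1 in both conditions in the 128 nt intron (53718 to 53845), with flanks of 0.453 and 0.343, and 1 after deproteinization in the 240 nt intron (51915 to 52154), whose −1 had no score in vivo. Matched introns of PTB1 and PTB2 were compared around their 5′ss. Over 100 nt around the 5′ss of the first intron after the start codon, where 52% of letters were identical, r was −0.00635 after deproteinization, and around the third it was 0.143 with 53% identical. Over the 50 exonic nt of the third alone, with 70% identical, r was 0.302, and over those of the first −0.0392.

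PTB3, on chromosome 1, had high scores at −1 in vivo. They were 0.665 to 1 and above the flanks in all 6 entries, from 5 distinct 5′ss (background 60.8%), and after deproteinization −1 was above its flanks in 6 of 7 (background 67.5%). The 190 and 503 nt introns, which share a 5′ss, and the 83 nt intron scored 1 in both conditions. The 158 nt intron scored 1 in vivo and 0.459 after deproteinization, the 113 nt intron 0.891 and 0.408, and the 77 nt intron 0.665 and 0.311. The 77 nt intron was the exception after deproteinization, at 0.311 against flanks of 0.331. The 85 nt intron, in the deproteinized table only, scored 0.793 with flanks of 0.374. In introns of both tables the scores of PTB3 were thus either unchanged at the ceiling of 1 or lower without protein.

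**Figure D4:**
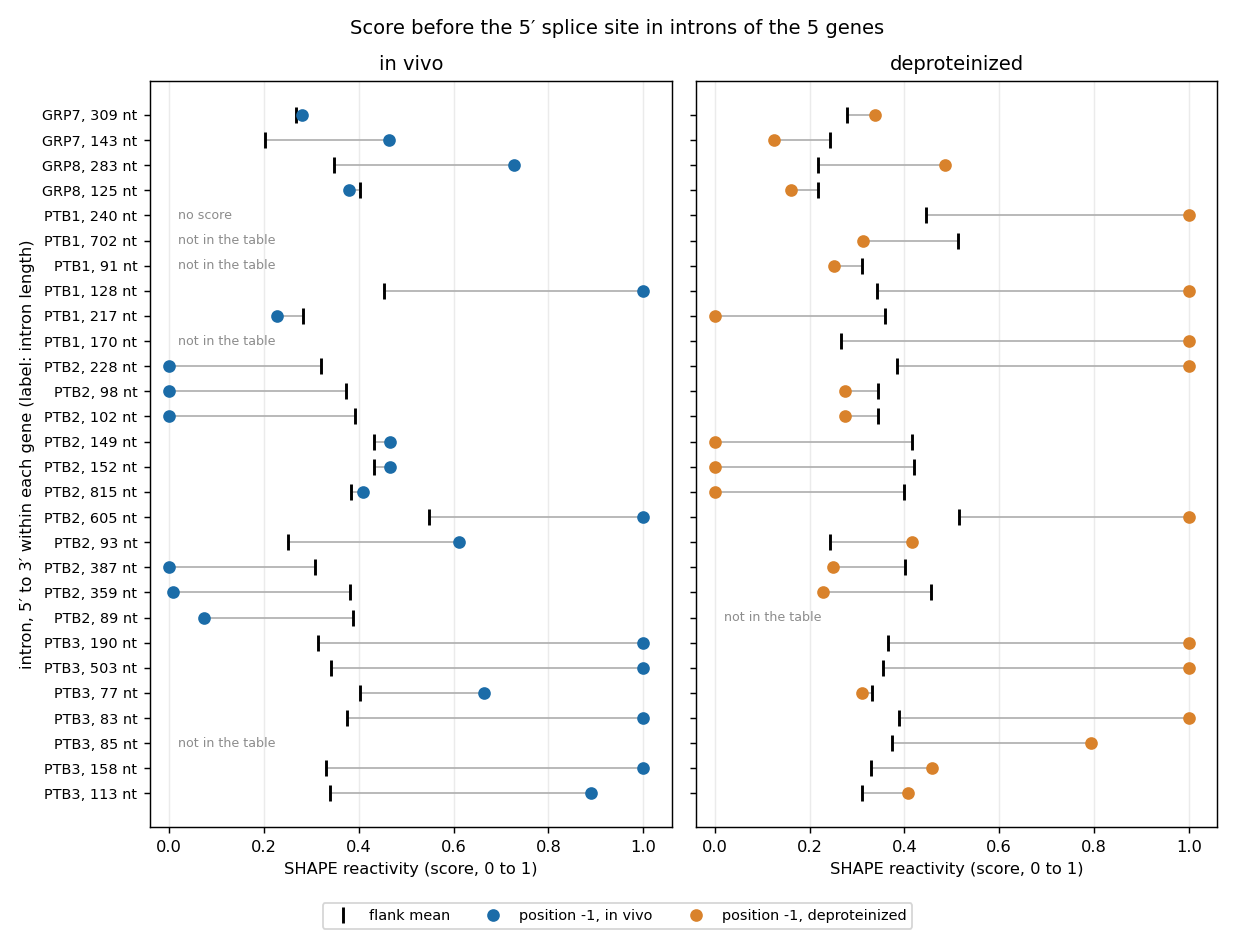
SHAPE reactivity (score, 0 to 1) at −1 of the 5′ss (points) and mean of the flanks (black ticks) for each member intron outside exon 2 of GRP7 and GRP8, in vivo (left) and deproteinized (right). PTB3 points lie at 0.665 to 1 in vivo, right of their flanks, while 5 of the 11 PTB2 points are right of theirs.

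Counted over the 5 genes, −1 was above its flanks in 15 of 23 introns in vivo (65.2%, background 60.8%) and in 32 of 54 after deproteinization (59.3%, background 67.5%). Without the introns inside exon 2 the latter count was 14 of 27. The −2 nucleotide was above its flanks in 10 of 23 (background 44.8%) and 21 of 54 (background 56.1%). A −1 score of at least 0.6 was found in 10 of 23 (background 42.2%) and 27 of 54 (background 49.7%), or 9 of 27 without exon 2. A −1 score of exactly 0 was found in 4 of 23 (background 9.76%) and 4 of 54 (background 9.35%), and all 4 in vivo and 3 after deproteinization were PTB2 entries. Those 3 share a single 5′ss, and in vivo the 98 and 102 nt introns share theirs. The mean of −1 minus its flanks was 0.148 ± 0.381 in vivo (SD over 23 introns) and 0.187 ± 0.363 after deproteinization (SD over 54 introns), against 0.196 and 0.246 over all introns. In vivo the mean was 0.239 over 19 introns with scores of 0 as missing and 0.0861 over 20 with the recurring score as missing, so it depended on how these scores were treated. The spread between introns was wider than these differences, and introns of a gene are not replicates.

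Of the 22 member introns scored at −1 in both conditions, 10 were at least 0.2 lower after deproteinization (background 19.2%) and 5 at least 0.2 higher (background 27.6%). Those higher were all in PTB2. Those lower were 1 of GRP7, 2 of GRP8, 1 of PTB1, 3 of PTB2 sharing a 5′ss, and 3 of PTB3. In GRP8 the flanks fell as well, from 0.348 to 0.218 in the longer entry and from 0.402 to 0.217 in the shorter. The flanks of the other introns that were lower changed less. With scores of 0 treated as missing, the counts were 6 lower and 1 higher of 14. Over whole entries the correlation between conditions had a median of 0.311 in the members (0.102 to 0.548, 23 entries) and of 0.315 over all 15678 shared entries, and the 4 GRP7 and GRP8 entries lay at 0.427 to 0.548.

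Lists of related genes gave a comparison. Among introns of 18 SR genes, which encode serine/arginine-rich splicing factors, −1 was above its flanks in 47 of 77 in vivo and 72 of 124 after deproteinization. Among introns of 14 other hnRNP-like genes the counts were 39 of 62 and 39 of 69. The background was 60.8% in vivo and 67.5% after deproteinization. A −1 score lower by at least 0.2 after deproteinization was found in 18 of 70 SR and 18 of 48 hnRNP-like introns (background 19.2%). A higher one was found in 20 of 70 and 13 of 48 (background 27.6%).

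UCUU, to which PTB proteins bind, was searched on the strand of each intron. Its nucleotides averaged less than the rest of the intron in 21 of 23 member introns with the motif in vivo (background 59.0%) and in 19 of 26 after deproteinization (background 58.0%). The median of the difference was −0.0681 in vivo and −0.0223 after deproteinization, against −0.0169 and −0.0135 over all introns. The 2 exceptions in vivo were the 190 and 503 nt introns of PTB3, at 0.397 and 0.414 in UCUU against 0.329 and 0.379 elsewhere. In the longer GRP8 intron UCUU averaged 0.270 against 0.451 in vivo, and in the 240 nt intron of PTB1 0.178 against 0.328. The counts were 38 of 69 and 72 of 109 for SR genes, and 25 of 47 and 28 of 51 for hnRNP-like genes. With CUUU and UUCU counted as well, the member counts were 17 of 24 in vivo and 19 of 27 after deproteinization. The in vivo share thus depended on the motif chosen, and no background was computed for the wider set. With scores of 0 as missing, the UCUU counts were 16 of 19 and 19 of 26. Several member introns overlap and share UCUU copies, and protein contact was not measured. The letters UUCUGG were in 4 of 24 and 5 of 63 member introns (6.72% and 7.38% of all introns), all of them in PTB1 or PTB2.

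Positions −7 to −4 before the 3′ss were below −20 to −8 in 16 of 24 introns in vivo (background 60.5%) and 53 of 63 after deproteinization (background 63.9%), or 19 of 27 without exon 2. In the longer GRP7 intron they averaged 0.547 against 0.814 in vivo and 0.689 against 0.796 after deproteinization. In the longer GRP8 intron they averaged 0.506 against 0.635, and 0.514 against 0.530.

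The detail of these profiles differed between genes. The share of nucleotides at the most frequent score other than 0 and 1 was 3.67% to 8.89% in vivo and 0.489% to 0.889% after deproteinization in the 4 GRP7 and GRP8 entries outside exon 2, against medians of 34.3% and 26.5% over all entries. In PTB2 and PTB3 it was 32.9% to 61.9% in vivo. Whether a recurring score is a measurement or a value filled in is not given in the sources used here. Such a score stood at −1 in 1 member entry in vivo, the 217 nt intron of PTB1, and in 5 after deproteinization, which were the 702 nt intron of PTB1, the 98 and 102 nt introns of PTB2, the 77 nt intron of PTB3 and 1 exon 2 intron of GRP8. It stood at −2 in 6 and 4 entries. No such count was made over all entries, so whether these counts are high or low cannot be told.

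Base pairing was computed for 50 nt on either side of each alternative 5′ss with the reactivities as restraints, which gives a model and not a measurement. The probability that −1 was unpaired was 0.0115 at the exon 1 site and 0.369 at the intronic site of GRP7 in vivo, and 0.0218 and 0.0430 after deproteinization. In GRP8 it was 0.726 and 0.0147 in vivo, and 0.581 and 0.000171 after deproteinization. At the PTB2 alternative exon it was 0.0202 at the upstream donor and 0.984 at the exon's donor in vivo, and 0.0343 and 0.992 after deproteinization. At the close PTB2 pair it was 0.0151 at the outer and 0.256 at the inner site in vivo, although both scored near 0. The same −1 scores were among the restraints, so these probabilities are not independent of them. After deproteinization the order was opposite to that of the scores in GRP7. It was opposite also at the close PTB2 pair, with 0.0132 and 0.314 where the scores were 0.250 and 0.196. At the PTB1 skipped exon it was opposite too, with 0.00371 and 0.319 where the scores were 0.313 and 0.255. With 40 nt on either side the GRP7 intronic site in vivo had a probability of 0.0337. After deproteinization the GRP8 exon 1 site then had 0.0535. The PTB1 skipped exon then had 0.631 and 0.00777, the same order as its scores. These values thus depended on the stretch folded. Folding without reactivities gave 0.0454 at the exon 1 site and 0.226 at the intronic site of GRP7, and 0.324 and 0.0152 in GRP8. It gave 0.114 and 0.973 at the PTB2 alternative exon, and 0.123 and 0.408 at the close PTB2 pair. Sequence alone thus gave the same order within these pairs as with reactivities. At the PTB1 pair of 5′ss it did not after deproteinization. With reactivities the outer site had 0.329 and the inner 0.576, and without them the outer was higher.

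Poly(A) windows were found for GRP7 and GRP8 only, all in the 3′ UTR. The region −28 to −17 holds the poly(A) signal in many plant genes, and −4 to +1 surrounds the cleavage site. In GRP7, in vivo only, these regions averaged 0.576 and 1.24 at the site at 9265253, with 0.697 in the rest of the window. At 9265240 they averaged 0.829 and 0.916 (rest 0.773), and at 9265204 0.849 and 0.782 (rest 0.798). The cleavage region of the most upstream GRP7 site stood out, and the other windows were close to even. At that site the cleavage nucleotide and the one before it both scored 0.500, the score that recurs most in the window, while +1 scored 1.96.

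In GRP8 the site at 18273972 averaged 1.09 at −28 to −17 and 0.585 at −4 to +1 in vivo (rest 0.791), and 0.928 and 0.577 after deproteinization (rest 0.774). The site at 18273953 averaged 0.774 and 0.486 (rest 0.753), and 0.942 and 0.829 (rest 0.865). In GRP8 the cleavage region was thus below the rest in both conditions and at both sites. The upstream region was above the rest in 4 of 5 windows in vivo and 2 of 2 after deproteinization (background 52.6% and 60.1%), and the cleavage region in 2 of 5 and 0 of 2 (background 49.1% and 51.5%). Nucleotide 51 of the window was taken as the site. With nucleotide 50 the in vivo counts were 3 of 5 and 3 of 5, and with nucleotide 52 they were 4 of 5 and 3 of 5. The counts after deproteinization did not change. Windows of a gene overlap, and their scores on shared nucleotides correlated at 0.980 to 0.998. Between conditions the GRP8 windows correlated at only 0.0746 and 0.0868, against a median of 0.162 over 992 shared windows. None held AAUAAA, and 22% to 42% of nucleotides carried a single recurring score.

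**Figure D5:**
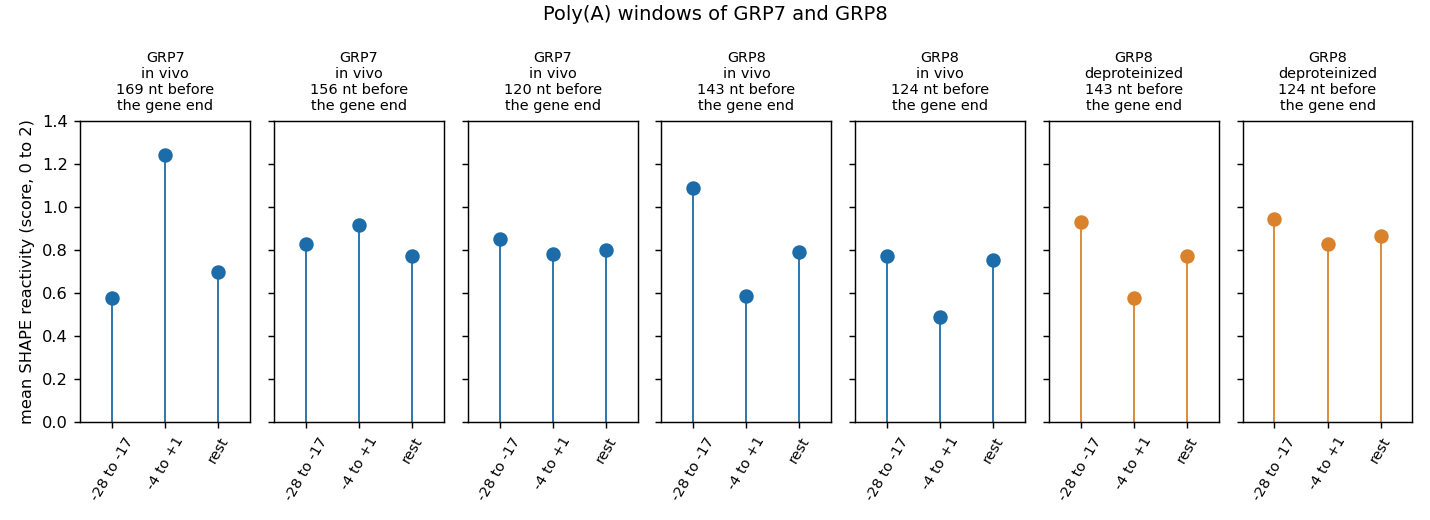
Mean SHAPE reactivity (score, 0 to 2) at −28 to −17, at −4 to +1 and in the rest of the 100 nt window for each poly(A) site of GRP7 and GRP8, in vivo (blue) and deproteinized (orange), with the distance to the gene end above each panel. The GRP7 site 169 nt before the gene end has 1.24 at −4 to +1, while the GRP8 sites have 0.486 to 0.829 there.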

How the data were processed

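SHAPE libraries of nuclear RNA were made with and without NAI in both conditions. According to the submitters' processing notes, FastQC 0.11.5, cutadapt 1.14, HISAT2 2.1.0 and the TAIR10 genome were used. For introns the authors kept unsplit reads at exon-intron junctions and in introns, and for poly(A) sites reads across or downstream of the site. The deposited values are SHAPE reactivity scores per nucleotide that the authors computed from reverse-transcription stops of merged libraries. The methods name a threshold of at least 1 such stop per nucleotide, but whether it was applied to the deposited entries, the formula and the depth of each entry are not given in the sources used here, so no interval or floor could be given. The authors left the 3′ss dinucleotide out of their calculation, and scores at the last 2 intron nucleotides were not interpreted here.

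Members were all entries of the 5 genes. Those described singly share a splice site with another entry, are in both tables or are poly(A) windows. The members and gene lists were chosen with earlier results of these data known. Annotation and sequence came from RefSeq (TAIR10.1). A position had a flank mean where at least 10 flank nucleotides had a score. Missing scores were left out and scores of 0 kept. Pearson's r describes pairs of profiles. Folding used ViennaRNA 2.7.2 with a slope of 1.8 and an intercept of −0.6. Python 3.11.15, numpy 2.4.6, scipy 1.17.1 and matplotlib 3.10.9 were used, and the measures were tested on simulated data. With 1 profile per condition there was no test.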

Additional observations from a re-analysis of the deposited data

Results flagged for a closer look

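Results in which a member's contrast had opposite signs in the 2 conditions, by at least 0.2 in each, are given here. None of these differences was tested, as each condition has 1 profile. The intronic minus the exon 1 site of GRP7 at −1 changed by −0.635, from 0.434 in vivo to −0.201 after deproteinization. The branch motif A of GRP7 minus its flanks changed by −0.886 in the 309 nt entry, from 0.540 to −0.345, and by −0.972 in the 143 nt entry, from 0.664 to −0.309. Both entries read the same nucleotide. The −1 nucleotide minus its flanks in the 5′ UTR intron of PTB2 changed by 0.936, from −0.320 to 0.616.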

How the results depend on the processing

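Of 118 alternative values computed, 1 reversed and 14 moved beyond the bounds used, which were wide: a fixed ratio for counts, 1 SD between introns for means and 0.2 for pairs of sites. Within these bounds, the in vivo mean of −1 minus its flanks was 0.148, with 0.0861 to 0.239 over the alternatives, and the mean of −2 and −1 gave −0.0930 rather than −0.201 for GRP7 after deproteinization and 0.0906 rather than 0.00782 for the close PTB2 pair in vivo. The wider branch motif gave 12 of 23 and 11 of 26 rather than 11 of 13 and 11 of 15. The reversed value was the GRP8 difference between the intronic and the exon 1 site in vivo, −0.369 at −1 and 0.00118 as the mean of −2 and −1. The same mean gave 0.338 in vivo and 0.572 after deproteinization for the PTB2 alternative exon, 0 for the PTB1 pair and 0.246 for the close PTB2 pair after deproteinization. Own entries gave 0.184 for GRP7 in vivo, and then 1 pair rather than 2 had its downstream site at least 0.2 higher in vivo. With scores of 0 as missing, 0 pairs rather than 2 did so after deproteinization, and −1 was at least 0.2 higher after deproteinization in 1 intron rather than 5 and lower in 6 rather than 10. Against the median of the flanks, −2 was above in 33 rather than 21 deproteinized introns. Further alternatives were chosen after seeing the data. Without introns inside exons the deproteinized counts were 14 rather than 32 for −1 above its flanks, 9 rather than 27 for −1 of at least 0.6, and 19 rather than 53 for positions −7 to −4, since 36 entries were removed. With the recurring score as missing, −1 was higher after deproteinization in 3 introns. The cause of the other moves was not tested. No paired analysis was possible because each table holds 1 merged profile per condition. Depth is unknown, so how much of a difference between profiles is counting error cannot be given.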
